A study of Capra hircus with 7 samples.

Results

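Mammary gland cells that had received virus carrying cirRNA28250 (group cRNA28250, the overexpression) were compared with the control culture named c3NC. The 4 libraries of these groups, 2 on each side, were taken out of the 7 RNA-seq libraries of the series by the group in their titles. The cells came from Lanshan dairy goats and were grown in 3D culture, and total RNA was taken for all 7 libraries. The others were c5NC (1 library, a further control) and cKDmix (2 libraries, in which virus was used to inhibit cirRNA28250). The design text pairs the name 3NC with the knockdown and 5NC with the overexpression and spells out neither name, so c3NC was not the control listed next to cRNA28250. A difference between cRNA28250 and c3NC can therefore come from cirRNA28250, from the virus or vector, or from the c3NC culture, and these cannot be told apart with the 4 libraries. Values of c5NC and cKDmix are given for that reason beside the called genes named here. The labels do not say how many animals or cultures the libraries came from, so the spread between replicates may be technical. The level of cirRNA28250 itself was not analysed here.

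A circular RNA is a closed loop made when the end of an exon is spliced back to an exon upstream of it, and the loop lacks the free ends at which most RNA decay begins. Some circular RNAs bind microRNAs or proteins in the cytoplasm, and others act in the nucleus. The mammary gland holds luminal and basal epithelial cells, which make and eject milk, within a stroma of fibroblasts, fat cells and vessels.

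Expression was given as FPKM, a fragment count scaled for transcript length and library size. Of 17374 genes, 10896 to 11870 were at 1 FPKM or more in each of the 7 libraries; the number of reads behind the values is unknown. Genes that define fibroblasts were abundant and those that define epithelium were close to 0 in all 4 libraries. DCN, a collagen-binding proteoglycan, stood at 6720 and 7270 FPKM in c3NC against 8015 and 8882 FPKM in cRNA28250. EPCAM, KRT5, KRT8 and KRT18, which define mammary epithelium, stayed at or below 0.28 FPKM, and 21 of 27 measured luminal markers were under 1 FPKM in all 4 libraries, as were 11 of 16 basal markers. The highest of the rest was CD24 of the luminal list, at 26.2 FPKM, and the highest basal marker reached 13.97 FPKM. The replicates of cRNA28250 were further apart than those of c3NC. The SD of their log2 difference was 0.583 against 0.301, and 952 of the tested genes (8.26%) differed at least 2-fold between the cRNA28250 replicates, against 76 (0.659%) between the c3NC replicates.

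A small set of genes was called between the overexpression and c3NC, many of them under 1 FPKM in c3NC. With 2 libraries a side, a gene not called cannot be taken as unchanged. GPX3, a secreted glutathione peroxidase, and NDUFA4L2, a paralog of a respiratory chain subunit that low oxygen induces in human cells, rose from a few FPKM to over 100 FPKM, and TMEM65, which encodes a protein of the inner mitochondrial membrane, fell from near 1000 FPKM to near 20 FPKM. Of 11524 genes with at least 1 FPKM in 2 or more of the 4 libraries, limma on log2(FPKM + 1) called 147 (1.28%), with 0.05 as the limit of the Benjamini-Hochberg adjusted p. Of these, 126 were higher in cRNA28250 (1.09% of the genes tested) and 21 lower (0.182%), and all 147 changed at least 2-fold on the log2(FPKM + 1) scale. In 77 of the 126 the c3NC mean was under 1 FPKM, where that scale understates the change. All 147 had groups that did not overlap. Among all genes tested, both cRNA28250 libraries lay above both c3NC libraries in 4506 (39.1%) and below them in 1607 (13.9%), so 6113 genes (53.0%) did not overlap. With a change of at least 2-fold, 620 genes (5.38%) lay above and 123 (1.07%) below.

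The median gene was 0.18 higher in cRNA28250 on the log2 scale, and changes of gene groups are given relative to it. Quantile normalization moved that median to −0.03, gave 65 calls with 75.4% of them higher in place of 85.7%, and turned the balance of genes without overlap to 2539 above and 2993 below. Scaling by the median ratio gave 173 calls with 75.7% higher. Single libraries moved the number of calls by more than 1.5 times: limma called 79 genes without c3NC replicate 1, 75 without c3NC replicate 2, 3275 without cRNA28250 replicate 1 and 964 without cRNA28250 replicate 2. In the first 2 fits the spread comes from the cRNA28250 pair alone, and the lone c3NC library is assumed to vary like it. In the last 2 fits the spread comes from the c3NC pair alone, and the lone cRNA28250 library is assumed to vary like it. With no filter on low values limma called 0 of 16673 genes, 2653 of them with an unadjusted p under 0.05.

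**Figure D1:**
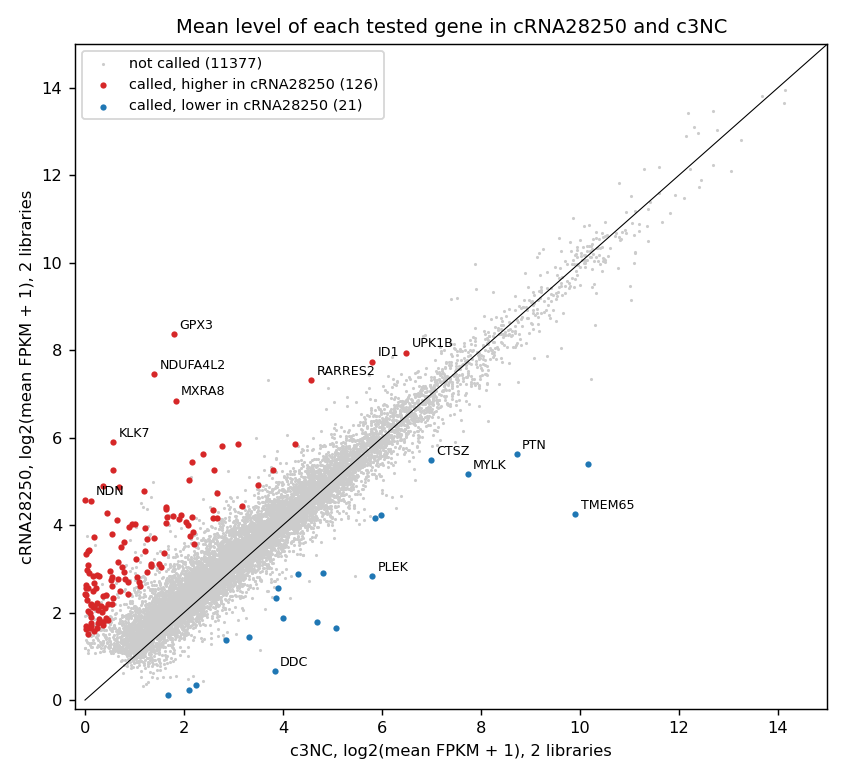
Mean level of each of the 11524 genes tested, as log2(mean FPKM + 1), in the 2 c3NC libraries (horizontal axis) and the 2 cRNA28250 libraries (vertical axis), with the line of equal levels. The 126 genes called higher lie mostly at the left edge, where c3NC was under 1 FPKM for 77 of them, while the 21 called lower spread from low to high c3NC levels.

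GPX3 and NDUFA4L2 had the largest rises. GPX3 was at 2.24 and 2.67 FPKM in c3NC against 174 and 486 FPKM in cRNA28250 (log2 fold change 6.40 with an SE of 0.47; limma, Benjamini-Hochberg adjusted p = 0.00787). NDUFA4L2 was at 1.31 and 1.97 FPKM in c3NC against 204 and 144 FPKM in cRNA28250 (log2 fold change 6.04 ± 0.26; limma, Benjamini-Hochberg adjusted p = 0.00228). Neither gene came near these levels elsewhere: GPX3 was at 4.61 FPKM in c5NC and at 6.78 and 6.97 FPKM in cKDmix, and NDUFA4L2 at 1.99, 2.60 and 1.79 FPKM. Both cRNA28250 libraries were therefore the highest of the 7 for each gene. The replicates ranked the genes differently, with GPX3 higher in replicate 2 and NDUFA4L2 higher in replicate 1.

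NDN, CRYM and RAB44 were close to silent in every library other than the overexpression. NDN, an imprinted gene whose MAGE-family product restrains growth, was at 0.04 and 0.12 FPKM in c3NC, at 24.8 and 20.2 FPKM in cRNA28250 and at or below 0.15 FPKM in c5NC and cKDmix (log2 fold change 4.44 ± 0.22; limma, Benjamini-Hochberg adjusted p = 0.00287). CRYM, mu-crystallin, which binds thyroid hormone, was at 0.45 and 0.12 FPKM in c3NC against 28.0 and 29.9 FPKM in cRNA28250 (4.55 ± 0.23; adjusted p = 0.00287), with 0.94 FPKM in c5NC and 0.83 and 0.60 FPKM in cKDmix. RAB44, a large Rab GTPase, was at 0.15 and 0.11 FPKM in c3NC against 12.8 and 11.7 FPKM in cRNA28250 (3.55 ± 0.21; adjusted p = 0.00501), with at most 0.10 FPKM in the other 3 libraries. In each of these genes the replicates of cRNA28250 differed by far less than the groups did.

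MXRA8, KLK7 and CD24 rose as well, with less uniform values in the other cultures. MXRA8, an adhesion protein with immunoglobulin domains, went from 3.37 and 1.76 FPKM to 134 and 92.8 FPKM (log2 fold change 5.02 ± 0.31; limma, Benjamini-Hochberg adjusted p = 0.00501), but was also at 81.1 and 76.6 FPKM in cKDmix and only 0.48 FPKM in c5NC. KLK7, a chymotrypsin-like protease that cleaves the junctions of shed skin cells, went from 0.24 and 0.73 FPKM to 19.95 and 97.6 FPKM (4.96 ± 0.69; adjusted p = 0.0388), with 0.05 FPKM in c5NC. Its replicates were the most unlike of the 12 largest rises, and cKDmix, at 5.21 and 4.98 FPKM, lay between the groups. CD24, a glycoprotein anchored in the membrane and used as a marker of luminal epithelium, was listed at 0 in both c3NC libraries and at 26.2 and 19.6 FPKM in cRNA28250 (limma, Benjamini-Hochberg adjusted p = 0.00287). It was at 15.5 FPKM in c5NC too, and at 0.82 and 0.50 FPKM in cKDmix. Of 27 luminal markers measured, 4 passed the filter and CD24 was the 1 called, while the summed level of the list was 34.8 and 39.9 FPKM in c3NC and 60.8 and 65.4 FPKM in cRNA28250. Without CD24 these sums were 34.8 and 39.9 FPKM and 34.6 and 45.8 FPKM, and the median of the 4 tested was −0.18 relative to all genes.

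KCNMB1, DMPK, ADIRF and LHX8 also rose, and each was also higher than c3NC in cKDmix. KCNMB1, the beta subunit of the calcium-activated potassium channel of smooth muscle, was at 0.36 and 0.77 FPKM in c3NC against 16.8 and 15.7 FPKM in cRNA28250 (log2 fold change 3.48 ± 0.23; limma, Benjamini-Hochberg adjusted p = 0.0061). The other cultures were at the cRNA28250 level, with 13.02 FPKM in c5NC and 15.9 and 17.5 FPKM in cKDmix, so the c3NC libraries were those that stood apart. DMPK, the kinase named for myotonic dystrophy, went from 1.50 and 1.06 FPKM to 16.6 and 35.9 FPKM (3.49 ± 0.38; adjusted p = 0.0207), with 1.46 FPKM in c5NC and 11.39 and 10.95 FPKM in cKDmix. ADIRF, a factor that promotes fat cell differentiation, went from 0.81 and 0.39 FPKM to 23.1 and 33.7 FPKM (4.19 ± 0.27; adjusted p = 0.00599) with 28.9 FPKM in c5NC and 10.6 and 6.88 FPKM in cKDmix. LHX8, a LIM homeobox transcription factor, was listed at 0.04 and 0 in c3NC and at 8.45 and 9.71 FPKM in cRNA28250 (3.30 ± 0.21; adjusted p = 0.00581), with 0.04 FPKM in c5NC and 9.45 and 9.30 FPKM in cKDmix.

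**Figure D2:**
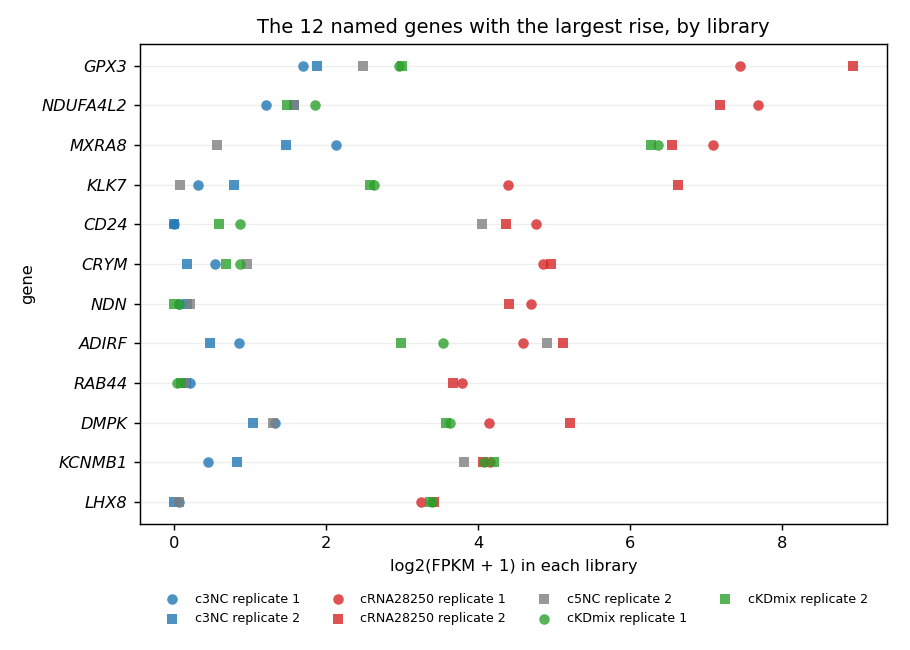
Level of the 12 genes with the largest rise, as log2(FPKM + 1) on the horizontal axis, with 1 point per library and colours for the 4 groups. For GPX3, NDUFA4L2, NDN, CRYM and RAB44 the 2 cRNA28250 points stand far from all 5 others, whereas for KCNMB1 and ADIRF the 2 c3NC points stand apart.

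TMEM65 had the largest fall. It was at 863 and 1050.1 FPKM in c3NC against 15.6 and 20.4 FPKM in cRNA28250 (log2 fold change −5.66 with an SE of 0.24; limma, Benjamini-Hochberg adjusted p = 0.00228). The remaining libraries were at 18.8 FPKM (c5NC) and at 32.1 and 29.6 FPKM (cKDmix), so that the value was high in c3NC and low in the 5 other libraries.

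The other genes that fell included enzymes, a growth factor and a contractile kinase. PTN, the heparin-binding growth factor pleiotrophin, went from 298 and 545 FPKM in c3NC to 30.4 and 65.9 FPKM in cRNA28250 (log2 fold change −3.14 ± 0.45; limma, Benjamini-Hochberg adjusted p = 0.0408), with 114 FPKM in c5NC and 705 and 635 FPKM in cKDmix. PTGS1, cyclooxygenase 1 of prostaglandin synthesis, went from 44.1 and 21.0 FPKM to 3.11 and 1.17 FPKM (−3.40 ± 0.45; adjusted p = 0.0339) and was lower still in c5NC, at 0.35 FPKM, with 20.98 and 20.97 FPKM in cKDmix. DDC, which makes dopamine and serotonin by decarboxylation, went from 16.8 and 9.66 FPKM to 0.48 and 0.69 FPKM (−3.12 ± 0.30; adjusted p = 0.0151), with 3.50 FPKM in c5NC and 1.89 and 1.21 FPKM in cKDmix. For PTN and DDC both cRNA28250 libraries were the lowest of the 7, and for PTGS1 they were not.

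MYLK, the kinase that phosphorylates the myosin light chain in smooth muscle, went from 195 and 228 FPKM to 29.5 and 40.1 FPKM (log2 fold change −2.58 ± 0.24; limma, Benjamini-Hochberg adjusted p = 0.0129). It was at 15.9 FPKM in c5NC and at 384 and 343 FPKM in cKDmix. PLEK, pleckstrin, a substrate of protein kinase C best known from platelets, went from 51.2 and 58.8 FPKM to 4.29 and 7.95 FPKM (−3.02 ± 0.29; adjusted p = 0.0151), with 20.1 FPKM in c5NC and 59.8 and 54.5 FPKM in cKDmix. ANGPTL4, a secreted inhibitor of lipoprotein lipase, went from 68.7 and 55.7 FPKM to 21.2 and 14.4 FPKM (−1.76 ± 0.25; adjusted p = 0.04), with 40.2 FPKM in c5NC and 29.9 and 28.2 FPKM in cKDmix. HSP70.1, an inducible chaperone gene with near-identical copies between which reads can be split, went from 9.06 and 8.82 FPKM to 1.71 and 1.69 FPKM (−1.88 ± 0.20; adjusted p = 0.0207). Its c5NC value, 8.51 FPKM, was close to c3NC, and cKDmix was at 3.27 and 3.06 FPKM.

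ADAMTSL4, HAPLN3 and PXDN, which act in the extracellular matrix, and EFS were also among the 12. ADAMTSL4, which binds fibrillin, went from 11.7 and 18.5 FPKM to 2.75 and 2.61 FPKM, with 9.74 FPKM in c5NC and 3.11 and 3.86 FPKM in cKDmix. HAPLN3, a link protein of hyaluronan and proteoglycans, went from 3.71 and 3.81 FPKM to 0.24 and 0.29 FPKM, with 0.33 FPKM in c5NC and 2.98 and 2.70 FPKM in cKDmix. PXDN, peroxidasin, which cross-links collagen IV, went from 2.44 and 1.98 FPKM to 0.08 and 0.09 FPKM, with 0.05 FPKM in c5NC and 2.46 and 2.44 FPKM in cKDmix. EFS, a docking protein of Src signalling, went from 3.43 and 3.10 FPKM to 0.13 and 0.22 FPKM, was listed at 0 in c5NC and was at 6.69 and 6.73 FPKM in cKDmix, above c3NC. The log2 fold changes of these 4 genes were −2.09, −1.91, −1.56 and −1.86 (limma, Benjamini-Hochberg adjusted p = 0.0314, 0.0207, 0.0361 and 0.0235).

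**Figure D3:**
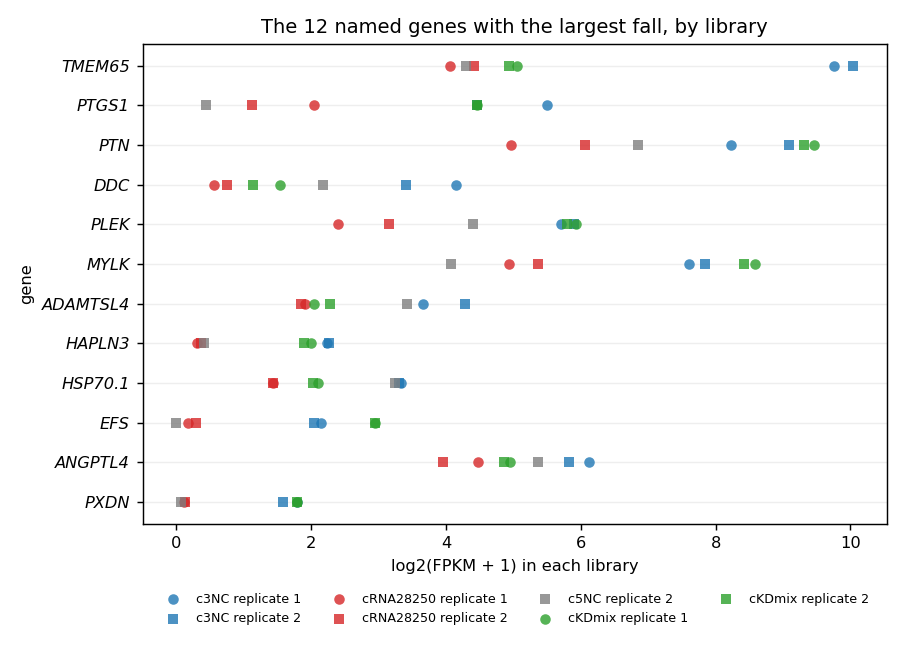
Level of the 12 genes with the largest fall, as log2(FPKM + 1) on the horizontal axis, with 1 point per library and colours for the 4 groups. TMEM65 is high in the 2 c3NC points alone, and for MYLK, PTGS1, EFS and PXDN the c5NC point lies near or below the 2 cRNA28250 points.

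The position of cRNA28250 and of c3NC among all 7 libraries was counted for the genes called. In 83 of the 126 genes called higher, both cRNA28250 libraries also lay above c5NC and both cKDmix libraries, an order held by 880 of all genes tested (7.64%). In 59 of the 126, both c3NC libraries lay below all 5 other libraries, an order held by 2151 of all genes (18.7%). Both orders held in 31 genes and neither in 15. Of the 21 genes called lower, 13 had both cRNA28250 libraries below all 5 others (434 of all genes, 3.77%) and 10 had both c3NC libraries above all 5 others (599 of all genes, 5.20%), with 7 in both counts. The order of the 4 compared libraries was fixed by the call, so these counts are a description. The shares of all genes include genes whose groups overlap. Such genes cannot hold these orders, so the shares are no matched background. With c3NC and c5NC as 1 control group limma called 60 genes, all among the 147, 57 of them higher in cRNA28250.

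Set against c5NC, some of these genes kept a large difference and others were near its level. As c5NC is 1 library, its own spread is unknown and the differences from it are given with no test. The cRNA28250 libraries enter both comparisons, so the values stand side by side and are no second test. NDUFA4L2, GPX3, MXRA8, KLK7, NDN, CRYM, RAB44, DMPK and LHX8 were higher than in c5NC by 3.27 to 6.25 on the log2 scale. TMEM65 (−0.07), HAPLN3 (−0.07), PXDN (0.05) and ADIRF (−0.05) had small differences from the 1 c5NC library on that scale. PPARG, the master regulator of fat cell differentiation, was above c3NC and below the c5NC library. It was at 0.50 and 0.39 FPKM in c3NC, at 3.75 and 7.57 FPKM in cRNA28250, at 40.1 FPKM in c5NC and at 3.97 and 4.12 FPKM in cKDmix. Its log2 fold change was 2.14 ± 0.32 against c3NC (limma, Benjamini-Hochberg adjusted p = 0.0469) and −2.69 against c5NC. SOD3, the extracellular superoxide dismutase, was at 12.9 and 14.1 FPKM in c3NC, at 4.61 and 3.42 FPKM in cRNA28250, at 0.41 FPKM in c5NC and at 1.43 and 1.23 FPKM in cKDmix. Its log2 fold change was −1.54 ± 0.22 against c3NC (limma, Benjamini-Hochberg adjusted p = 0.0416) and 1.82 against c5NC.

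Of the 34 genes named here by rule, 18 stayed called in each of the 4 fits without 1 library. The other 16 lost the call without c3NC replicate 1 or replicate 2, with limma adjusted p up to 0.322. They included ADAMTSL4, ANGPTL4, CTSZ, EFEMP1, EFS, EPSTI1, HAPLN3, HSP70.1, HSPB7, ID1, PPARG, PXDN, S100A1, SOD3 and XAF1. The fits without a c3NC library take their spread from the cRNA28250 pair alone. The loss of that library and the change of spread therefore cannot be told apart in a lost call. The fits without a cRNA28250 library take their spread from the c3NC pair alone, which was closer together than the cRNA28250 pair. A call kept in those fits therefore says little on stability.

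Gene groups were described by 36 lists, of which 31 had at least 5 genes tested. Few members of any list were called, with 0 to 2 per direction, so the lists are described by how many members had groups without overlap and by their medians, without a test of the list. The background is the 39.1% of all genes with both cRNA28250 libraries above c3NC and the 13.9% with both below, which become 22% and 26% after quantile normalization.

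Interferon-stimulated genes, which slow the replication of viruses, lay mostly above c3NC. Of 41 measured, 36 were tested. Both cRNA28250 libraries were above c3NC in 24 (66.7%) and below in 1 (2.78%), and 21 and 4 after quantile normalization. The list median was 0.35 above that of all genes, and both libraries showed it, with 0.51 in replicate 1 and 0.30 in replicate 2. The summed level of the list was 392 and 363 FPKM in c3NC and 547 and 592 FPKM in cRNA28250. It was 411 FPKM in c5NC and higher still in cKDmix, at 756 and 753 FPKM. A level above c3NC was therefore not particular to the overexpression. Called were EPSTI1, at 0.63 and 0.27 FPKM in c3NC against 3.28 and 3.95 FPKM in cRNA28250 (log2 fold change 1.68 ± 0.24), and XAF1, a promoter of cell death, at 0.28 and 0.40 FPKM and at 2.64 and 2.67 FPKM (1.45 ± 0.21; limma, Benjamini-Hochberg adjusted p = 0.0397 and 0.04). ISG15, a ubiquitin-like modifier, was at 0.80 and 0.33 FPKM and at 5.70 and 2.97 FPKM and was not called (adjusted p = 0.0741). In cKDmix EPSTI1 was at 1.98 and 1.92 FPKM, XAF1 at 1.40 and 1.55 FPKM and ISG15 at 10.7 and 6.81 FPKM, and in c5NC these genes were at 0.10, 0.22 and 1.12 FPKM.

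Splicing factors and transcripts known to be kept in the nucleus also lay above c3NC. All 38 measured were tested, 23 (60.5%) lay above and 0 below, and 19 and 2 after quantile normalization. None was called. The shift was unequal between the libraries, with list medians of 0.12 in replicate 1 and 0.62 in replicate 2 relative to all genes. HNRNPH1, a regulator of exon choice, was at 31.8 and 33.2 FPKM in c3NC against 54.1 and 87.4 FPKM in cRNA28250, with 51.6 FPKM in c5NC and 103 and 116 FPKM in cKDmix. Targets of p53, the regulator of arrest and cell death after DNA damage, lay above in 14 of 27 (51.9%) and below in 3 (11.1%), with 0 called. MDM2, which degrades p53, was at 23.7 and 32.5 FPKM in c3NC, at 75.5 and 125 FPKM in cRNA28250 and at 74.2 FPKM in c5NC, while CDKN1A, the p21 inhibitor of cyclin-dependent kinases, was at 375 and 382 FPKM in c3NC and lower, at 206 and 210 FPKM, in cRNA28250 (limma, Benjamini-Hochberg adjusted p = 0.0639 and 0.144). HNRNPH1, MDM2, CDKN1A and ISG15 were chosen after their values were seen, as were the uncalled genes named in the next paragraphs.

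Members of 3 matrix lists lay below c3NC more often than above it. Of 34 matricellular and elastic fibre genes tested (39 measured), both cRNA28250 libraries were below c3NC in 16 (47.1%) and above in 6 (17.6%), and 15 and 6 after quantile normalization. Relative to all genes their median was −0.68, and −0.60 and −0.91 in the replicates. Their summed level was 9844 and 11674 FPKM in c3NC and 7566 and 6210 FPKM in cRNA28250. It was 6151 FPKM in c5NC and 7227 and 7804 FPKM in cKDmix. A summed level below c3NC was therefore not particular to the overexpression. THBS1, thrombospondin 1, which activates TGF-beta, was at 1070.1 and 1440.4 FPKM in c3NC against 421 and 343 FPKM in cRNA28250 without a call (limma, Benjamini-Hochberg adjusted p = 0.0677). The 1 member called went the other way. EFEMP1, fibulin 3 of elastic tissue, was at 4.90 and 5.17 FPKM in c3NC, at 21.7 and 16.7 FPKM in cRNA28250 with 32.6 FPKM in c5NC and 13.07 and 10.25 FPKM in cKDmix (log2 fold change 1.73 ± 0.22; limma, Benjamini-Hochberg adjusted p = 0.0314). Matrix proteases and their inhibitors were below c3NC in 14 of 36 tested (38.9%) and above in 6, with 0 called.

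Collagen genes had the widest gap between the replicates of the overexpression among the 31 lists. Of 42 measured, 21 were tested, 8 (38.1%) lay below c3NC and 3 above, and none was called. Relative to all genes the list median was 0.09 in replicate 1 and −1.49 in replicate 2. The summed level was 9653.9 and 9523.5 FPKM in c3NC and 8173.4 and 2994.1 FPKM in cRNA28250. It was 4092.7 FPKM in c5NC and 4644.5 and 5166.2 FPKM in cKDmix, also below c3NC. COL1A1, a chain of the main fibrillar collagen, was at 2299 and 2074 FPKM in c3NC against 1591 and 458 FPKM in cRNA28250, and c5NC, at 377 FPKM, was lower than both. Fibroblast markers, which share the type I and III collagens with this list, lay below c3NC in 7 of 24 and above in 7, with 0 called. Their summed level was 24952 and 25991 FPKM in c3NC and 24074 and 21688 FPKM in cRNA28250. In bulk libraries fewer cells of a type and less RNA per cell cannot be told apart.

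Smooth muscle and myofibroblast genes held 1 gene called in each direction, KCNMB1 higher and MYLK lower. Of 27 tested, 8 (29.6%) lay below c3NC and 4 (14.8%) above. ACTA2, smooth muscle actin, was at 623 and 834 FPKM in c3NC, at 432 and 384 FPKM in cRNA28250 and at 63.5 FPKM in c5NC (limma, Benjamini-Hochberg adjusted p = 0.22). CNN1, the actin-binding calponin, was at 0.56 and 1.99 FPKM in c3NC against 8.08 and 13.7 FPKM in cRNA28250 (adjusted p = 0.0563). TAGLN, transgelin, overlapped between the groups, at 893 and 1073 FPKM and at 986 and 1013 FPKM. The contractile genes thus had values on both sides of c3NC, and the list medians of the replicates, −0.21 and −0.26 relative to all genes, were close to each other.

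Immediate early genes, which are switched on within minutes by growth factors and stress, set the replicates of cRNA28250 apart. Of 35 measured, 31 were tested, 13 (41.9%) lay below c3NC and 3 (9.68%) above, and none was called. The list median relative to all genes was −0.27 in replicate 1 and −1.43 in replicate 2. FOS, a subunit of the AP-1 factor, was at 367 and 489 FPKM in c3NC, at 300.2 FPKM in cRNA28250 replicate 1 and at 5.15 FPKM in replicate 2, with 587 FPKM in c5NC and 1.81 and 1.97 FPKM in cKDmix. EGR1, a zinc finger factor, was at 113 and 105 FPKM in c3NC against 155 and 8.59 FPKM in cRNA28250, so its groups overlapped. IER3, a regulator of survival under stress, was lower in both libraries, at 181 and 174 FPKM in c3NC against 75.7 and 42.4 FPKM in cRNA28250, without a call (limma, Benjamini-Hochberg adjusted p = 0.0743).

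Cell cycle genes were split in the same manner, with replicate 1 higher. The 44 mitosis genes tested had a median of 0.64 in replicate 1 and −0.79 in replicate 2 relative to all genes, with 6 (13.6%) above c3NC, 0 below and 0 called. The c3NC replicates were apart as well. The summed level of the 48 mitosis genes measured was 281 and 462 FPKM in c3NC and 648 and 277 FPKM in cRNA28250. MKI67, a marker of cycling cells, was at 1.86 and 2.73 FPKM in c3NC against 4.84 and 0.68 FPKM in cRNA28250. DNA replication genes had medians of 0.59 and −0.25, with 17 of 40 above c3NC (42.5%) and 2 below, and 7 and 3 after quantile normalization. Cytosolic ribosomal protein genes went the other way, with medians of −0.67 in replicate 1 and 0.05 in replicate 2, 14 of 75 (18.7%) below c3NC, 1 above and 0 called. These genes share sequence with pseudogenes, so single values are uncertain.

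**Figure D4:**
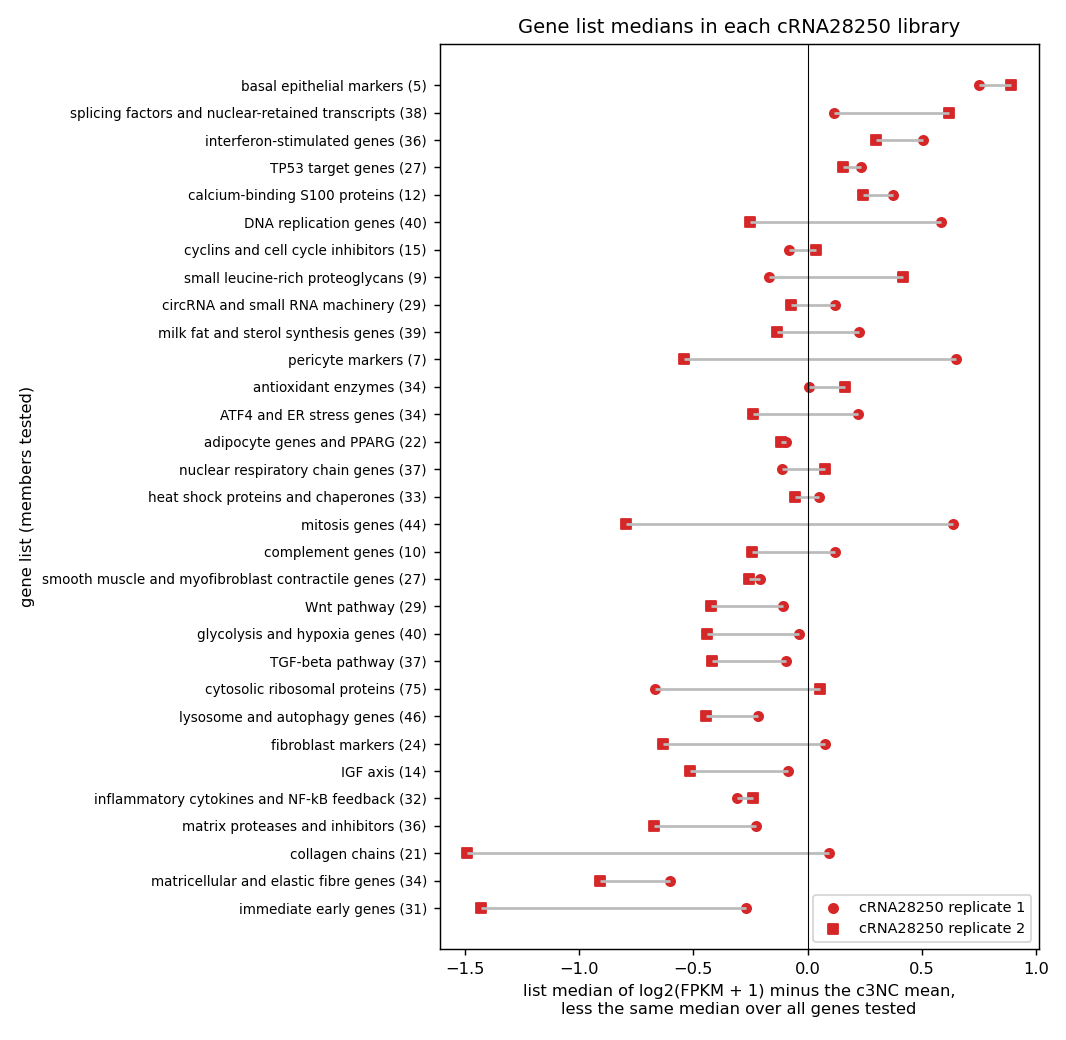
Median change of each list with at least 5 genes tested in cRNA28250 replicates 1 and 2 against the mean of c3NC, relative to the median of all genes tested, on the log2(FPKM + 1) scale. The matricellular and interferon lists have both replicates on the same side of 0, while the mitosis genes (0.64 and −0.79) and collagen chains (0.09 and −1.49) have the replicates far apart.

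The remaining lists held single called genes or none. ID1, an inhibitor of differentiation driven by BMP signals, was the 1 called of 37 genes of the TGF-beta pathway, at 69.1 and 40.8 FPKM in c3NC against 224 and 202 FPKM in cRNA28250 (log2 fold change 1.98 ± 0.29; limma, Benjamini-Hochberg adjusted p = 0.045), with 125 FPKM in c5NC and 76.5 and 52.7 FPKM in cKDmix. HSPB7, a small heat shock protein of muscle, was at 0.21 and 0.72 FPKM in c3NC, at 6.06 and 6.09 FPKM in cRNA28250 and at or below 0.28 FPKM in c5NC and cKDmix (2.29 ± 0.25; adjusted p = 0.0215). S100A1, a calcium-binding protein of muscle, was at 1.77 and 2.01 FPKM in c3NC against 6.99 and 7.44 FPKM in cRNA28250 (1.51 ± 0.21; adjusted p = 0.037), with 2.55 FPKM in c5NC and 1.06 and 0.61 FPKM in cKDmix. CTSZ, a lysosomal cysteine protease, fell from 127 and 124 FPKM to 43.0 and 44.7 FPKM (−1.50 ± 0.19; adjusted p = 0.0314), with 55.3 FPKM in c5NC and 75.5 and 62.9 FPKM in cKDmix. Among 46 lysosome and autophagy genes it was the 1 called, with 18 (39.1%) below c3NC and 6 above.

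In the antioxidant list GPX3 was called higher and SOD3 lower, with 15 of 34 (44.1%) above c3NC and 6 below. Glycolysis and hypoxia genes had NDUFA4L2 called higher and ANGPTL4 lower, with 12 of 40 (30.0%) above and 7 below. VEGFA, the vessel growth factor induced by low oxygen, is 1 of these 40 genes and was not called (limma, Benjamini-Hochberg adjusted p = 0.228). It was at 86.0 and 76.2 FPKM in c3NC against 56.0 and 54.4 FPKM in cRNA28250. The part of low oxygen in these values was not tested. The adipocyte list held PPARG as its 1 called member of 22 tested, with 10 (45.5%) above c3NC and 6 below. Milk fat and sterol genes held none of 39, with 18 (46.2%) above and 6 (15.4%) below. After quantile normalization the adipocyte list had 5 above and 7 below, and the milk fat and sterol list 7 and 12. Before quantile normalization the shares above were near the 39.1% of all genes, and 27.3% of the adipocyte list lay below against 13.9%. After it the shares of all genes were 22% above and 26% below, so neither list is read as leaning upward. The TGF-beta pathway had 8 of 37 above and 8 below, heat shock proteins 15 of 33 above and 7 below, and S100 proteins 7 of 12 above and 0 below. The pericyte list held NDUFA4L2 as its 1 called member of 7 tested, with 3 above c3NC and 2 below. Lists with 0 genes called included ER stress, the circular and small RNA machinery, and cyclins with cell cycle inhibitors. ER stress had 14 of 34 (41.2%) above c3NC and 2 below, and 11 and 4 after quantile normalization. The circular and small RNA machinery had 15 of 29 (51.7%) above and 3 (10.3%) below, but 4 above and 7 below after quantile normalization. Cyclins with cell cycle inhibitors had 7 of 15 (46.7%) above and 4 below, and 5 and 5 after it. Complement genes (5 of 10 above, 3 below), the Wnt pathway (10 of 29 above, 9 below), inflammatory cytokines (7 of 32 above, 10 below) and the IGF axis (1 of 14 above, 4 below) also had 0 called. So did small leucine-rich proteoglycans (4 of 9 above, 1 below) and the nuclear genes of the respiratory chain (11 of 37 above, 3 below). No milk protein gene passed the filter, and the highest of the 4 measured was 0.17 FPKM in the 4 libraries.

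Markers of other cell types stayed low in number. Of the 10 lymphocyte markers measured, 2 were tested and 1 was called. CD8B, a chain of the T cell co-receptor, was at 0.94 and 0.76 FPKM in c3NC against 19.4 and 9.51 FPKM in cRNA28250 (log2 fold change 2.99 ± 0.35; limma, Benjamini-Hochberg adjusted p = 0.0262), listed at 0 in c5NC and at 0.85 and 0.57 FPKM in cKDmix. CD8A, its partner chain, CD3D and CD3E, which define T cells, and PTPRC, which marks all leukocytes, were at or below 0.19 FPKM in the 4 libraries. Of 12 endothelial markers measured 3 were tested and 0 called, with a summed level of 46.8 and 39.8 FPKM in c3NC and 29.2 and 27.0 FPKM in cRNA28250. Of 11 macrophage markers measured 2 were tested and 0 called, with summed levels of 224 and 187 FPKM and of 203 and 130 FPKM. Of the 11, 7 were under 1 FPKM in all 4 libraries. A single marker reached 217.68 FPKM, so most of the sum of 224 FPKM came from 1 gene. Of 16 basal markers measured 5 were tested and 0 called; 4 lay above c3NC, and the sum went from 14.4 and 25.4 FPKM to 33.1 and 38.9 FPKM. The part of these markers in the differences was not tested.

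**Figure D5:**
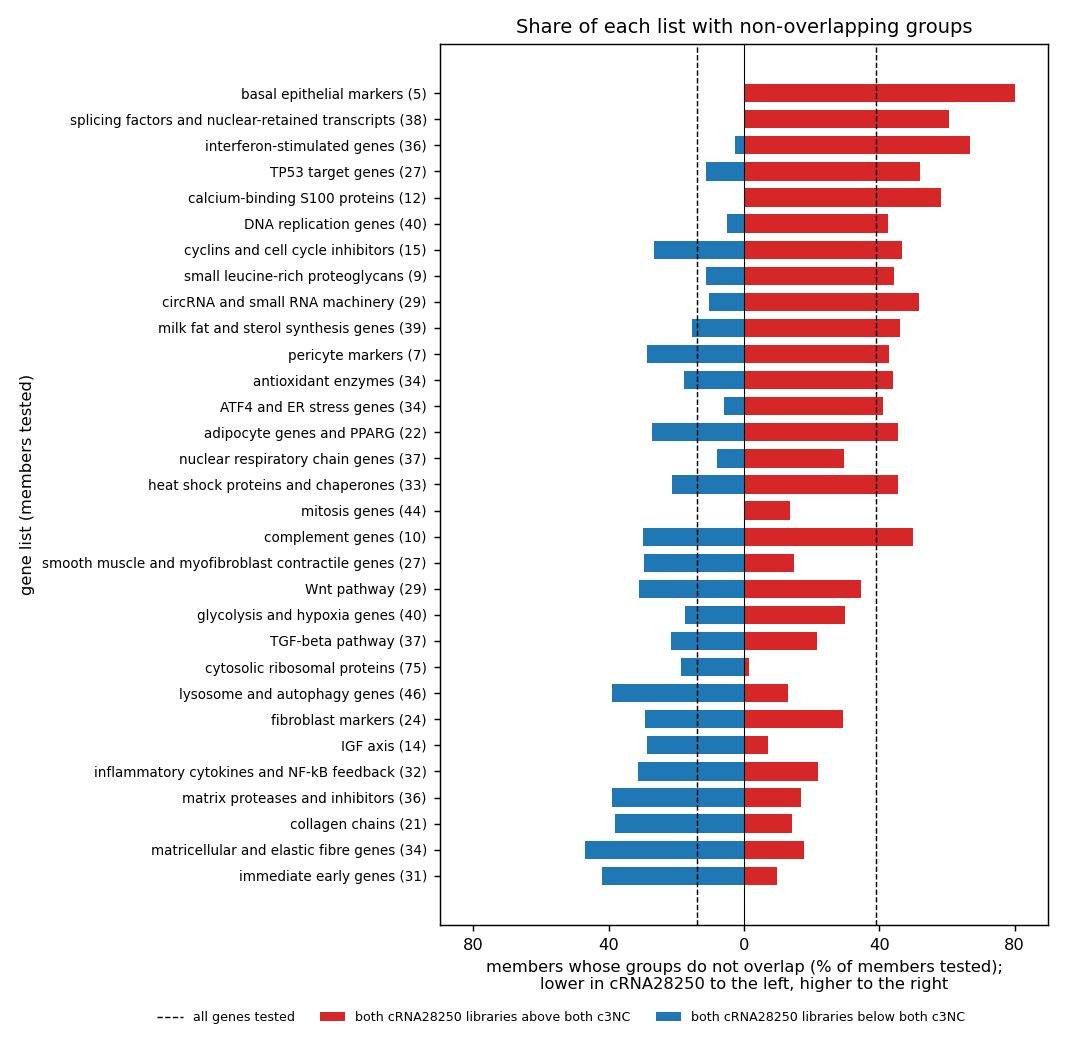
Share of the tested members of each list whose groups do not overlap, in percent, with both cRNA28250 libraries above c3NC to the right and below to the left. Dashed lines mark the 39.1% and 13.9% of all 11524 genes tested; interferon-stimulated genes (66.7%) lie furthest beyond the right line among lists of over 30 genes, and matricellular genes (47.1%) beyond the left.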

How the data were processed

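The deposited table held 1 FPKM value per gene and library for 17374 genes, which the authors computed, per the file headers, and wrote to hundredths; the sources used here do not name the aligner, gene models, genome build, strand setting or scaling. RefSeq (ARS1.2) gave symbols for 17007 identifiers; 367 did not match, and no coordinates are given. Genes at 1 FPKM or more in 2 or more of the 4 libraries entered limma 3.58.1 (R 4.3.3) on log2(FPKM + 1) with a variance trend, 2 residual and 3.97 prior degrees of freedom, two-sided, Benjamini-Hochberg adjusted over all 11524 genes and called under 0.05. Only the 4 libraries entered, since the cRNA28250 replicates differ more than others. The code was tested on simulated data. Count models were not used, as the reads behind each FPKM are unknown. An exact permutation test of 2 against 2 libraries cannot go below p = 0.333, so single genes have no test outside limma.

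In each direction the text names the 12 largest changes among called genes with no overlap and a mean of at least 2 FPKM in the higher group, and up to 4 called members (2 in the lesser direction) of each list with at least 5 genes tested. Locus numbers were left out (20 of the 126 and 5 of the 21). A gene that the rule names is not reported here. The comparison, the lists and the genes were chosen with earlier results of these data known. Alternatives were another pseudocount, filter, scaling, variance model, set of libraries or control, a replicate block, and leaving out each library.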

Additional observations from a re-analysis of the deposited data

How the results depend on the processing

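The number of genes called went from 147 to 65 with quantile normalization, 562 with all 7 libraries in 1 fit, 628 with the replicate number as a block, 60 with c3NC and c5NC as 1 control group, 942 with c5NC as the control and 0 with no filter on low values (limma; 2653 genes with an unadjusted p under 0.05 there), and leaving out 1 library gave 75 to 3275; the cause was not tested. The 4 libraries share only a number, with no stated pairing, and the deviations of same-numbered replicates correlated at 0.297 across genes. The other settings called 115 to 184 genes. Genes whose groups did not overlap went from 4506 above and 1607 below to 2539 and 2993 with quantile normalization, 2951 and 2931 with the median ratio, and 3000 and 951 against c3NC and c5NC together.

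Of the 34 genes named, 34 kept direction and call with a pseudocount of 0.1 and in the fits with all 7 libraries or the block. Without either cRNA28250 replicate 34 kept direction. The spread in those fits comes from the c3NC pair alone, so calls kept there say little on stability. With no filter 34 lost the call (adjusted p from 0.0783 to 0.141), with quantile normalization 11, with c3NC and c5NC as 1 control group 21 (0.0518 to 0.892), without c3NC replicate 1 14 (0.0518 to 0.322) and without c3NC replicate 2 15 (0.0594 to 0.289), while 18 were called in all 4 fits without 1 library. Against c5NC, a single library whose own spread is unknown, the log2 fold change turned in 8: ADIRF (−0.05), PTGS1 (1.15), MYLK (1.07), EFS (0.23), PXDN (0.05), EFEMP1 (−0.74), SOD3 (1.82) and PPARG (−2.69). The median relative to all genes changed sign with quantile normalization in the respiratory chain (0.15), proteoglycan (−0.05) and heat shock (0.10) lists. That of the cytosolic ribosomal proteins went from −0.32 to −0.00.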

Other observations

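Further called genes, chosen here after their values were seen, reached high levels in the overexpression. RARRES2, the adipokine chemerin, was at 28.1 and 17.3 FPKM in c3NC, at 138 and 178 FPKM in cRNA28250, at 22.4 FPKM in c5NC and at 50.4 and 41.0 FPKM in cKDmix (log2 fold change 2.77 ± 0.29; limma, Benjamini-Hochberg adjusted p = 0.0185). UPK1B, a uroplakin of epithelial membranes, was at 80.8 and 96.6 FPKM in c3NC against 236 and 255 FPKM in cRNA28250, with 244 FPKM in c5NC and 55.2 and 43.8 FPKM in cKDmix (1.46 ± 0.22, adjusted p = 0.045). CPXM1, a carboxypeptidase-like protein of the matrix, was at 6.34 and 5.27 FPKM in c3NC against 65.2 and 44.2 FPKM in cRNA28250, with 11.5 FPKM in c5NC and 1.83 and 1.53 FPKM in cKDmix (3.01 ± 0.25, adjusted p = 0.0101). ACSL5, which activates long-chain fatty acids, was at 4.13 and 4.25 FPKM in c3NC against 44.4 and 52.9 FPKM in cRNA28250, and c5NC (24.3 FPKM) and cKDmix (32.7 and 32.3 FPKM) were also far above c3NC.

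Several called genes are known from neurons. NEFL, a neurofilament subunit, was at 0.12 and 0.07 FPKM in c3NC against 3.09 and 3.98 FPKM in cRNA28250. CNTN1, an axonal adhesion protein, was at 0.35 and 0.94 FPKM and at 8.75 and 11.9 FPKM, and GABRA3, a subunit of the GABA receptor, was at 0.07 and 0.02 FPKM and at 8.61 and 6.51 FPKM. All 3 were at or below 1.30 FPKM in c5NC and cKDmix, and no list of neuronal genes was examined. FGF2, a fibroblast growth factor, and NUDT6, which overlaps it on the opposite strand in human, were both called higher, FGF2 from 1.01 and 0.63 FPKM to 4.56 and 4.11 FPKM and NUDT6 from 3.38 and 3.83 FPKM to 10.7 and 11.2 FPKM. In c5NC FGF2 was at 0.57 FPKM and NUDT6 at 3.74 FPKM. In cKDmix FGF2 was at 2.23 and 5.71 FPKM and NUDT6 at 7.77 and 9.90 FPKM. Whether strand was used in counting is not given in the sources used here, so reads of these genes may not be told apart.

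The largest change among called genes left out for having only a locus number was a fall. LOC102169211 was at 833 and 1442.6 FPKM in c3NC, at 16.5 and 65.3 FPKM in cRNA28250, at 126 FPKM in c5NC and at 1441.3 and 1122.2 FPKM in cKDmix (log2 fold change −5.01 ± 0.64; limma, Benjamini-Hochberg adjusted p = 0.0314).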
